A study of Mus musculus with 2 samples.

Results

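Cycling hepatocytes are liver parenchymal cells caught while they copy their DNA or divide. In these data they were 90 of the 10616 barcodes of 2 single-cell RNA sequencing libraries of mixed mouse liver cells. Members were chosen by measured values. A member had at least 2000 unique molecular identifiers (UMIs, one per captured RNA molecule), at most 50% mitochondrial UMIs and no UMI of the leukocyte gene Ptprc. Its Alb, Apoa1 and Ttr transcripts together made up at least 2% of its UMIs, and it held at least 3 UMIs of Mki67, Top2a, Cenpf and Ube2c together, called cycle UMIs here. The first library came from C57BL/6 liver with the genotype label pIVCL, partial inferior vena cava ligation, which congests the liver, taken 6 weeks after surgery. The second came from C57BL/6 liver labelled Control, whose title calls it healthy. The protocol text given for both libraries describes the ligation, so the groups rest on the genotype labels and titles. The mice were 8 to 10 weeks old at surgery. A sham operation, the mice pooled per library and their sex are not stated. The liver tissue was taken apart by collagenase perfusion into suspensions of hepatocytes and non-parenchymal cells, and the libraries held 38154000 UMIs over 7042 barcodes in pIVCL and 24637681 over 3574 in Control. With 1 library per group nothing was tested between them, and every interval below covers counting error only.

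The adult liver renews itself slowly, and most hepatocytes rest outside the cell cycle until injury, loss of tissue or a growth signal calls them back. A cell that enters the cycle first makes the enzymes and helicase subunits that copy DNA (S phase). It later makes the kinases, motor proteins and kinetochore parts that separate the chromosomes (G2 and mitosis, G2/M), and hepatocytes can also stop before cytokinesis and stay binucleate or polyploid. Genes of the late programme share promoter elements: the cell cycle genes homology region (CHR), which the MuvB complex reads, and CCAAT boxes, which NF-Y binds. The 4 cycle genes of the rule belong to it. Mki67 encodes the proliferation antigen Ki-67 and lies at chr7:135689784-135716450, and Top2a, which untangles replicated DNA, lies at chr11:98992947-99024199. Cenpf, a kinetochore protein, lies at chr1:189640606-189688107, and Ube2c, which feeds ubiquitin to the anaphase-promoting complex, lies at chr2:164769929-164772902 (GRCm38.p6, RefSeq).

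The promoters of the 5 G2/M genes with the most UMIs in members, among those with a sequence in the RefSeq table (Smc4 had none), are shown because they carry these elements; Hmgb2 equalled the fifth, Cdca3, at 439 UMIs and is not shown. Each runs 5′ to 3′ from 250 bases before to 50 after the annotated start on GRCm38.p6. Capitals mark CHR matches (TTTGAA or its reverse complement TTCAAA) and CCAAT boxes (CCAAT or ATTGG). Tubb4b, a beta-tubulin, lies at chr2:25224653-25224952 on the minus strand, and Mki67 at chr7:135716330-135716629 on the minus strand. Cdc20, the activator of the anaphase-promoting complex, lies at chr4:118437294-118437593 and Cenpf at chr1:189688037-189688336, both on the minus strand. Cdca3, a trigger of mitotic entry, lies at chr6:124829926-124830225 on the plus strand.
Tubb4b: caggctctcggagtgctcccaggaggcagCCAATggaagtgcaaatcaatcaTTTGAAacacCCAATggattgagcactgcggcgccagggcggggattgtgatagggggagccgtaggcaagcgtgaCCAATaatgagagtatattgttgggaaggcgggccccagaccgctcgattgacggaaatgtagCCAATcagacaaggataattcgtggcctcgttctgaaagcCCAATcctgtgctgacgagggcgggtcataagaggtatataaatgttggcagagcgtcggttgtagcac
Mki67: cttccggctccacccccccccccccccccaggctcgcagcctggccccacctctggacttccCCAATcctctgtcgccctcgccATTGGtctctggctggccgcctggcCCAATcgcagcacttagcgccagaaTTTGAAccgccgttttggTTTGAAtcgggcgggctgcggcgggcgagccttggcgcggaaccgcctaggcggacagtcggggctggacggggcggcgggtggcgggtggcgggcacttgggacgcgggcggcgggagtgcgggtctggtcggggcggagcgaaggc
Cdc20: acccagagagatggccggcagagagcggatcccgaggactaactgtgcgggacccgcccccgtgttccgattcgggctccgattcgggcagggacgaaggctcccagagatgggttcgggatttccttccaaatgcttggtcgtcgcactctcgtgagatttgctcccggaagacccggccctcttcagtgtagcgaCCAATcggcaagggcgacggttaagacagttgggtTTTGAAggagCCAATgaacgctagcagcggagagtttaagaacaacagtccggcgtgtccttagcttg
Cenpf: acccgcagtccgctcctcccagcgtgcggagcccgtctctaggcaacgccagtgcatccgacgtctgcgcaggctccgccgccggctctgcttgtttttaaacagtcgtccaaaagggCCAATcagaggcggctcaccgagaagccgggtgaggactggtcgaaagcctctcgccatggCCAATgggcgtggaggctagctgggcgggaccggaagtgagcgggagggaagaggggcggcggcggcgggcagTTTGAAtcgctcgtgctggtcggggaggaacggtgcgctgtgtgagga
Cdca3: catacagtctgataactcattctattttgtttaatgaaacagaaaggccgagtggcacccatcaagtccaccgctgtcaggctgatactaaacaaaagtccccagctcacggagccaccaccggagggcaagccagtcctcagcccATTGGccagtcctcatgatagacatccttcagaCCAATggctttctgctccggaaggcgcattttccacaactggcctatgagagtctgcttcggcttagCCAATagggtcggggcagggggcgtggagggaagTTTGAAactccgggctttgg
Each of the 5 windows held at least 1 CHR match and at least 2 CCAAT boxes, and Tubb4b had 5 CCAAT boxes. Of the 46 promoters found for the 52 genes of the G2/M list, 32 (69.6%) held a CHR match, beside 5 of 30 (16.7%) for the S phase list and 18.1% of 27025 promoters. A CCAAT box stood in 76.1% of G2/M promoters, 70.0% of S phase promoters and 37.9% of the 27025. The E2F letters GCGGGAA or TTCCCGC stood in 0 of 46 G2/M promoters, 14 of 30 S phase promoters (46.7%) and 4.66% of the 27025. These are letter matches on both strands in the same 300 bases, not measured binding.

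The members had the transcripts of hepatocytes. Of 16 hepatocyte genes that the rule did not use, pIVCL members had between 13 and 16 with a UMI (median 16), and both Control members had all 16. These genes made up 3.00% to 6.87% of non-mitochondrial UMIs in the 88 pIVCL members (median 5.64%), and 5.71% and 7.46% in the 2 Control members. They were set beside barcodes under the 2% limit that carried at least 5 UMIs of B cell markers or of sinusoidal endothelial (LSEC) markers. Whether free RNA gave the hepatocyte transcripts of those barcodes was not tested. The medians of the B cell and LSEC marker barcodes were 0.740% and 0.395% in pIVCL and 0.472% and 0.252% in Control. The highest such barcode reached 2.81%, below every member. Because the 2% limit on Alb, Apoa1 and Ttr set these barcodes apart, a gap on other hepatocyte genes was partly fixed by the selection. Non-cycling hepatocytes, which passed the same limit but had no cycle UMI, went as low as 1.29% in pIVCL and 0.769% in Control.

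Markers of other cells were low in most members. The plasma cell list, whose Sdc1 hepatocytes also make, was excluded from these counts. Of 88 pIVCL members, 18 had no UMI of any other cell type's list, and 6 had 10 or more of at least 1 list. One of those 6 held 185 of the members' 215 neutrophil UMIs. Another, with 3 cycle UMIs, all of Mki67, held 17 LSEC, 22 vascular endothelial and 20 monocyte/macrophage list UMIs. On the plasma cell list 1 further pIVCL member, with 3 cycle UMIs and none of Mki67, held 58 UMIs. No non-cycling pIVCL hepatocyte held over 23. That member is kept where members with 10 or more UMIs of another cell type are left out below. T cell and mesothelial markers had 0 UMIs in pIVCL members, which allows up to 2.14 CPM (UMIs per 1000000 non-mitochondrial UMIs of the pooled cells), the level of 3 UMIs. Of the 2 Control members, the first, of 29737 UMIs, had no LSEC marker UMI. The second, of 32830 UMIs, had 37, from all 6 LSEC genes, and 13 UMIs of the vascular endothelial list, and is called the Control member with endothelial transcripts. Values of the Control members are given in that order. No doublet caller was run, and whether such barcodes held 2 cells was not tested. The 2 libraries shared 13 barcode sequences, of which 1 was a pIVCL member.

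Members passed the limits by different margins. Among pIVCL hepatocytes 69 had 1 cycle UMI and 22 had 2, just outside the rule, while 11 had 3 and 6 had 4, just inside. The median member had 13, and the highest had 97. In Control 4 hepatocytes had 1 cycle UMI and 1 had 2, none had 3 to 5, and the 2 members had 33 and 27. The lowest hepatocyte transcript share of a member was 2.11%, and 20 pIVCL and 4 Control Ptprc-free barcodes with 3 or more cycle UMIs lay under the limit, the highest at 1.92%. Those 20 pIVCL barcodes held 7100 neutrophil marker UMIs and 331 LSEC marker UMIs. Ptprc alone left out 7 pIVCL and 1 Control barcodes, and mitochondrial share alone left out 2 and 4.

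**Figure D1:**
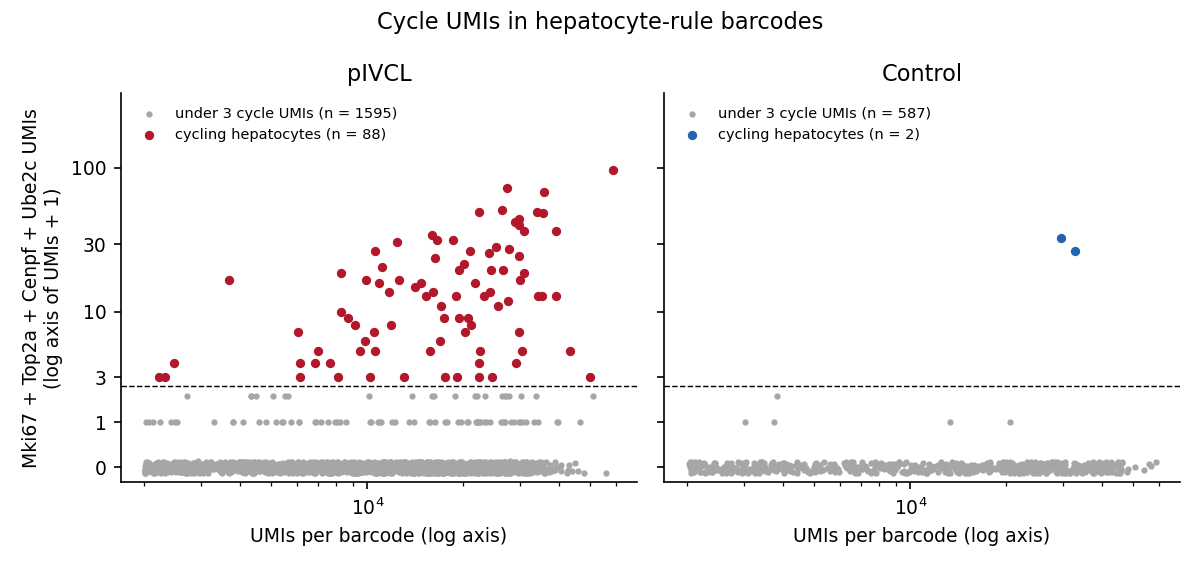
Cycle UMIs (Mki67, Top2a, Cenpf and Ube2c together; vertical, log axis of UMIs + 1) against all UMIs (horizontal, log axis) for each barcode that met the hepatocyte limits, pIVCL left and Control right. Coloured points above the dashed line are the 88 pIVCL and 2 Control members, and grey points have under 3 cycle UMIs, jittered at 0.

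Cycling hepatocytes made up a larger share of hepatocytes in the pIVCL library. They were 88 of 1683 hepatocyte barcodes in pIVCL, 5.23% (exact Clopper-Pearson 95% interval 4.21% to 6.40%), and 2 of 589 in Control, 0.340% (0.0411% to 1.22%). The ratio of the shares, pIVCL over Control, was 15.4 (95% log interval 3.803 to 62.3). Median depth was 12561 UMIs in pIVCL and 12935 in Control hepatocytes, but depth was spread more widely in Control: the tertiles met near 7703 and 17774 UMIs in pIVCL and 6455 and 21923 in Control. After each hepatocyte was thinned to 2000 UMIs, 94 of 1683 pIVCL hepatocytes (5.59%) and 3 of 589 Control hepatocytes (0.509%) kept at least 1 cycle UMI, a ratio of 10.97 (3.49 to 34.5); no hepatocyte was shallower than that depth. Unthinned, at least 1 cycle UMI was present in 10.6% of pIVCL and 1.19% of Control hepatocytes.

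Cycle UMIs were counted in other cells by the same limits. At least 3 cycle UMIs were found in 5 of 380 B cell marker barcodes of pIVCL (1.32%) and 1 of 150 of Control (0.667%), at median depths of 2617 and 3513 UMIs. LSEC marker barcodes gave 15 of 517 (2.90%) in pIVCL and 8 of 979 (0.817%) in Control, at medians of 4183 and 7668 UMIs, a ratio of 3.55 (1.52 to 8.32). The Control hepatocyte share of 0.340% was below both Control shares, so it does not stand above the level measured in those cells. After thinning to 2000 UMIs at least 1 cycle UMI was left in 16 of 380 B cell marker barcodes (4.21%, 2.43% to 6.75%) and 20 of 517 LSEC marker barcodes (3.87%, 2.38% to 5.91%) of pIVCL. These intervals overlap that of the thinned pIVCL hepatocytes (5.59%, 4.54% to 6.79%). In Control the thinned shares were 3 of 150 B cell marker barcodes and 13 of 979 LSEC marker barcodes (1.33%), beside 0.509% of hepatocytes. The ratio of thinned shares, pIVCL over Control, was 2.91 (1.46 to 5.81) in LSEC marker barcodes and 2.11 (0.622 to 7.12) in B cell marker barcodes. How many of these barcodes were themselves cycling cells was not tested.

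The share was also counted with genes the rule did not use, at thresholds set after the data were seen. Hepatocytes with at least 10 UMIs of the G2/M list outside the rule genes, and at least 20 per 10000 non-mitochondrial UMIs, were 93 of 1683 in pIVCL (5.53%) and 5 of 589 in Control (0.849%), a ratio of 6.51 (2.66 to 15.9). Of the 93, 76 were members, 8 had 1 or 2 cycle UMIs and 9 had none. Hepatocytes with at least 10 S phase list UMIs, and at least 10 per 10000, were 37 in pIVCL (2.20%) and 1 in Control (0.170%). Of those 37, 33 were members. Leaving out the 6 pIVCL members and the Control member with 10 or more UMIs of another cell type gave 4.87% and 0.170%. When hepatocytes with any UMI of endothelial or lymphoid markers, or over 1% erythroid UMIs, were set aside, pIVCL gave 4.07% and Control had no member left. This filter kept 1204 of 1683 pIVCL and 298 of 589 Control hepatocytes. It set the first Control member aside for 1 UMI, of Eng, among its 29737 UMIs.

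**Figure D2:**
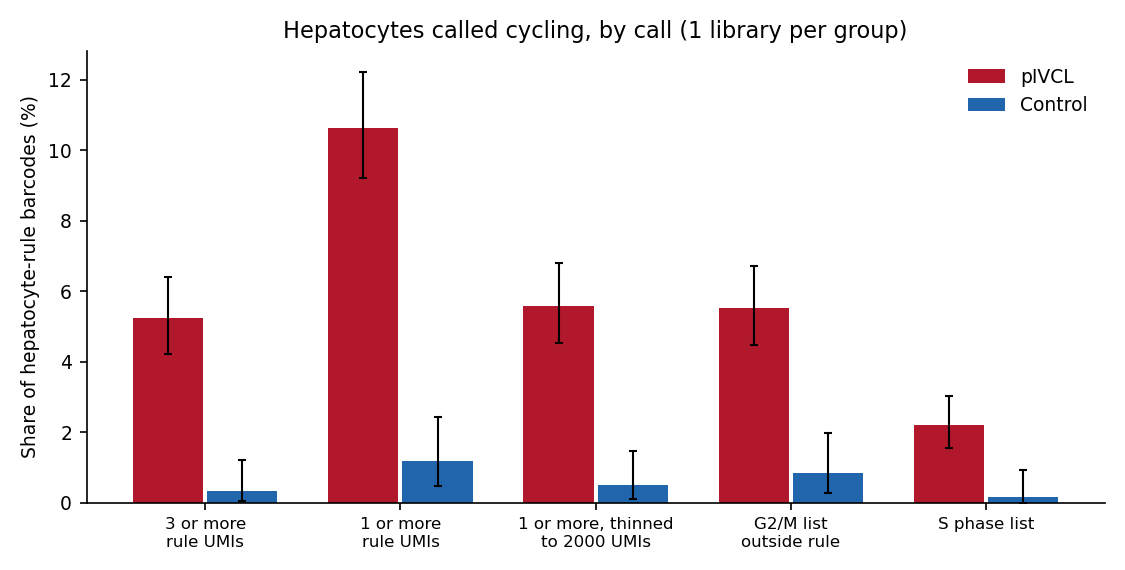
Share of hepatocyte barcodes called cycling (percent) under 5 calls, pIVCL left and Control right in each pair; error bars are exact 95% binomial intervals that cover counting error within 1 library. The pIVCL bar is the taller under each call, from 2.20% against 0.170% by the S phase list to 10.6% against 1.19% by any cycle UMI.

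The 4 rule genes differed in how evenly they marked the members. Mki67 had a UMI in 85 of 88 pIVCL members, Cenpf in 68, Ube2c in 66 and Top2a in 55. Mki67 had at most 30 UMIs in 1 pIVCL member, Top2a 20, Cenpf 33 and Ube2c 45. In summed reads Mki67 stood at 361.1 CPM (95% Poisson interval 330.4 to 394.0) in pIVCL members and at 549 CPM in the 2 Control members. Top2a had 188.8 CPM in pIVCL members and 412 CPM in Control members, from 12 and 9 UMIs in the 2 cells. Cenpf had 321.2 CPM in pIVCL and 157 in Control members, and Ube2c 258.6 and 58.8 CPM, the last from 3 UMIs of 1 Control cell. These genes chose the members, so their levels are a description only.

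Members were compared with the 1504 pIVCL and 582 Control hepatocytes that had no cycle UMI, called non-cycling. Because the rule used the cycle genes of the same cells, these differences are given as values and support nothing about the rule. Cycling pIVCL hepatocytes were deeper, with a median of 19207 UMIs (2224 to 59020) and 4027 genes, against 12245.5 UMIs and 2657 genes in non-cycling ones. Across all genes with at least 20 summed UMIs, 239 of 11039 (2.17%) were at least 2-fold higher in cycling cells on the log2(CPM + 20) scale and 25 (0.226%) at least 2-fold lower. The median of all these genes was 0.08. In Control, with 2 cycling cells, the shares were 7.75% and 8.27% of 9809 genes.

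G2/M genes were higher almost throughout. Outside the rule genes, 44 of 47 measured G2/M genes were at least 2-fold higher in cycling than non-cycling pIVCL hepatocytes, with a median log2 difference of 2.03. Their summed level was 6376 CPM in cycling and 499.3 CPM in non-cycling cells, a ratio of 12.8 (12.4 to 13.2). Cdc20 had 329.1 CPM in cycling cells and 1.26 CPM in non-cycling cells. It was present in 64 of 88 members and reached 27 UMIs in 1 of them. Cdca3 had 307.7 and 2.08 CPM, Smc4, a condensin subunit, 368.2 and 16.3 CPM, and Tubb4b 928.8 and 118.9 CPM. In the 2 Control members Tubb4b had 6 and 15 UMIs, Smc4 17 and 6, and Cdc20 0 and 2.

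The cyclins and their kinases split by the phase they serve. Ccnb1, the mitotic cyclin, had 182.3 CPM in cycling and 0.694 CPM in non-cycling pIVCL cells, and Ccnb2 had 168.1 and 2.08 CPM. Ccna2, the S and G2 cyclin, had 128.2 and 0.820 CPM, and their partner Cdk1 had 122.5 and 2.27 CPM. Those 4 and Ccnf were the 5 of 13 genes of this list past 2-fold. The G1/S cyclin Ccne1 was low, at 9.26 and 0.947 CPM, and had a UMI in few members (6.82%). Ccnd1, the cyclin through which growth signals act, was not higher in cycling cells: it had 164.5 CPM (144.0 to 187.2) in cycling and 209.8 CPM (202.7 to 217.0) in non-cycling pIVCL hepatocytes. It had 0 UMIs in both Control members and 152 CPM in Control non-cycling hepatocytes.

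Genes of the mitotic machinery were higher in each complex examined. Of the mitotic kinases and checkpoint genes, 12 of 13 were at least 2-fold higher. Plk1, a kinase of mitotic entry, had 103.3 CPM in cycling and 0.252 CPM in non-cycling pIVCL cells, Aurka 64.8 and 0.379 CPM, and Aurkb 63.4 and 0.252 CPM. Of the kinetochore genes, 11 of 12 passed 2-fold, with Cenpa, the centromeric histone H3, at 205.1 and 7.005 CPM and Spc25 at 181.6 and 8.84 CPM. Of the kinesin and spindle genes 13 of 15 passed 2-fold. Stmn1, which destabilises microtubules, had 580.5 CPM (541.3 to 621.8) in cycling and 15.9 CPM (14.0 to 18.0) in non-cycling cells. It was present in 81 of 88 pIVCL members and had 18 and 12 UMIs in the Control members.

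Genes of cytokinesis were higher as well. All 9 measured of 11 were at least 2-fold higher in cycling pIVCL cells, and Cit and Cep55 had too few UMIs to be counted. Their summed level was 970.1 CPM in cycling and 8.08 CPM in non-cycling cells. Birc5, the survivin subunit of the chromosomal passenger complex, had 235.1 and 1.77 CPM, and Prc1, which bundles the central spindle, had 147.4 and 0.379 CPM. Anln, the anillin that anchors the contractile ring, had 83.3 and 0.379 CPM and a UMI in 49 of 88 members. In Control, Prc1 had 7 and 13 UMIs in the 2 members, and Anln 0 and 7.

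DNA replication genes differed less than those of mitosis. Of 38 measured S phase genes 14 were at least 2-fold higher in cycling pIVCL cells and none lower, with a median log2 difference of 0.82 and a summed ratio of 5.25 (4.95 to 5.55). Rrm2, the ribonucleotide reductase subunit made in S phase, had 158.1 CPM in cycling and 2.65 CPM in non-cycling cells. Rrm1 had 79.1 and 10.9 CPM, Tyms, which makes thymidylate, 63.4 and 7.95 CPM, and Mcm6, of the replicative helicase, 64.1 and 6.00 CPM. Pcna, the polymerase clamp, had 53.4 and 13.1 CPM. In the Control members Mcm6 had 13 and 0 UMIs.

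Chromatin genes and regulators followed. Of 11 measured histone and chromatin genes 7 were past 2-fold. The histone variant H2afz had 1353 CPM in cycling and 204.5 CPM in non-cycling pIVCL cells and a UMI in 86 of 88 members, and Hmgb2 had 292.7 and 11.5 CPM. Foxm1, the transcription factor that joins MuvB at CHR promoters, had 47.0 CPM (36.4 to 59.8) and 0.189 CPM (0.0390 to 0.553). It was the 1 of 10 measured cycle transcription factors past 2-fold. E2f1 stood at 19.9 and 4.29 CPM, and Myc at 3.56 and 4.86 CPM. Among cyclin-dependent kinase inhibitors 3 of 6 passed 2-fold, with Cdkn3 at 143.2 and 1.20 CPM, Cdkn2c at 77.6 and 10.2 CPM and Cdkn2d at 32.1 and 2.97 CPM. The p53 target Cdkn1a had 117.5 and 55.1 CPM, but 1 barcode held 64 of its 165 UMIs in members.

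**Figure D3:**
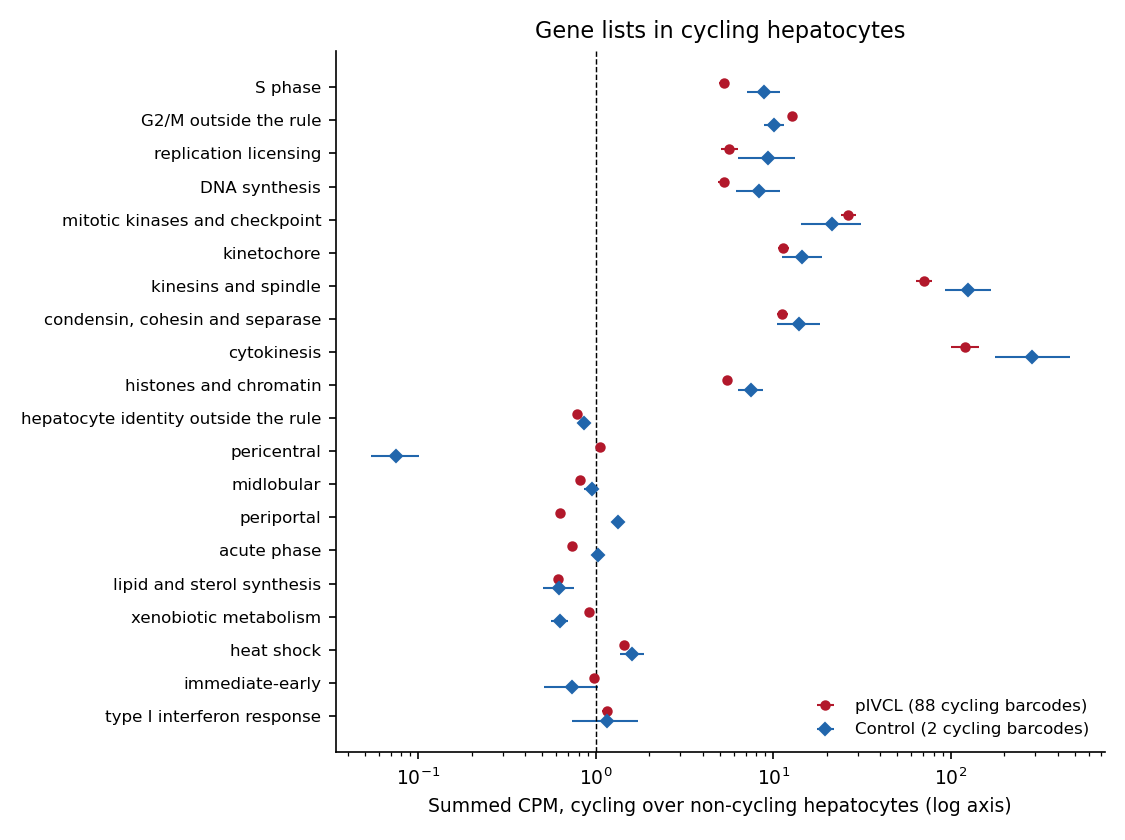
Summed CPM of 20 gene lists in cycling over non-cycling hepatocytes of the same library (log axis), pIVCL in red above and Control in blue below on each line, with exact 95% intervals of counting error. Cycle lists lie to the right of the dashed line at 1 in both libraries. The pericentral and periportal lists lie on opposite sides of it in pIVCL and Control, with the pericentral list close to it in pIVCL, at 1.06.

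Most members carried more late than early cycle transcripts. In pIVCL members the G2/M list, without the rule genes, gave 8951 of 10719 phase UMIs, 83.5% (82.8% to 84.2%), against 67.5% in pIVCL non-cycling hepatocytes. Control members gave 72.4%, against 69.6% in Control non-cycling hepatocytes. In 81 of 88 pIVCL members and both Control members the G2/M UMIs outnumbered the S phase UMIs, and 6 members were within 5 UMIs of equality. More G2/M than S phase UMIs was not particular to members. The G2/M share per barcode had a median of 68.0% and a 10th percentile of 54.6% in the 93 pIVCL non-cycling hepatocytes with enough phase UMIs for a share. In the 84 such pIVCL members the median was 87.8% and the 10th percentile 54.4%. G2/M list UMIs ran from 12.3 to 143.8 per 10000 in pIVCL members (median 70.6) and were 57.3 and 43.2 in Control members. The S phase list ran from 1.97 to 49.3 in pIVCL members (median 9.10) and gave 30.1 and 9.23 in Control members. Without the members with 10 or more UMIs of another cell type the G2/M share was 83.2% in pIVCL and 65.6% in the Control member left. The rule genes are themselves late genes, so the rule favours that phase.

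The 7 pIVCL members with more S phase than G2/M UMIs are described by their transcripts. Slbp, Mcm6 and Uhrf1 are on the S phase list that split them off, so their higher levels there follow from the split, and 3 of the 7 had only 1, 1 and 5 more S phase than G2/M UMIs. Slbp, the histone mRNA binding protein, had 231.0 CPM in these 7 and 40.4 CPM in the other 81, Mcm6 231.0 and 48.9 CPM, and Uhrf1, which copies DNA methylation, 145.4 and 16.3 CPM. Ccnb1 had 0 of 256 UMIs in the 7, where the level of 3 UMIs would be 25.7 CPM, and 198.9 CPM in the 81. Hepatocyte identity genes summed to 65047 CPM in the 7 and 54777 CPM in the 81. The cut between them is a count of transcripts in each cell, not a cell type.

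**Figure D4:**
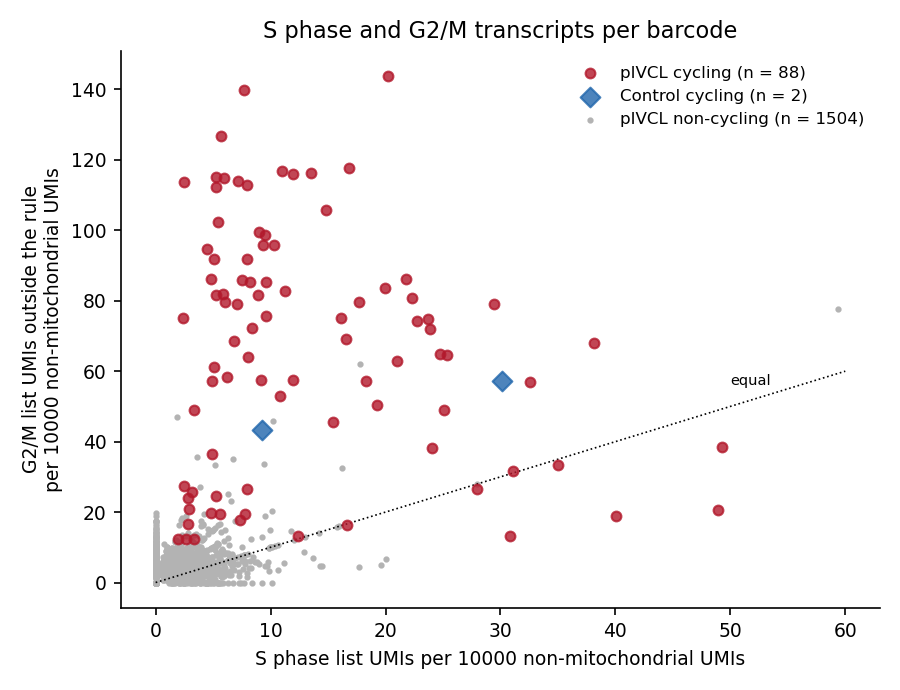
S phase list UMIs (horizontal) and G2/M list UMIs outside the rule genes (vertical), both per 10000 non-mitochondrial UMIs of a barcode, for 88 pIVCL members (red circles), 2 Control members (blue diamonds) and 1504 pIVCL non-cycling hepatocytes (grey). Most members lie above the dotted line of equal values, and 7 pIVCL members lie below it. Most of the 93 non-cycling hepatocytes with enough phase UMIs for a share lie above it too.

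Hepatocyte transcripts took a smaller part of RNA in cycling cells. All 16 identity genes outside the rule were lower in cycling than non-cycling pIVCL hepatocytes, none by 2-fold, with a median log2 difference of -0.45. They summed to 55632 CPM in cycling and 70724 CPM in non-cycling cells, a ratio of 0.787. Hpd, of tyrosine breakdown, had 699.5 and 1209 CPM, Tat 548.5 and 908.7 CPM, and the hepatocyte factor Hnf4a 248.6 and 291.4 CPM. In Control 11 of the 16 were lower in cycling cells, with a median of -0.22, beside a median of -0.11 over all genes measured there. CPM is a share of RNA, so a gene whose molecules per cell stayed level would be lower where other RNA was added. Whether that was so in these cells was not tested.

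Lipid synthesis and acute phase genes were lower too. Lipid and sterol synthesis genes summed to 3727 CPM in cycling and 6115 CPM in non-cycling pIVCL hepatocytes, with Scd1, the stearoyl-CoA desaturase, at 2226 and 4265 CPM and Fasn at 141.0 and 265.4 CPM. Of the 12 genes 10 were lower, none past 2-fold. Of 15 acute phase genes 12 were lower, with the haptoglobin gene Hp at 2021 and 2848 CPM. Serpina3n was among the 3 that were higher, at 344.7 and 243.0 CPM. Of 7 measured heat shock genes Hsp90aa1, an inducible HSP90, had 1011 CPM (959.5 to 1065) in cycling and 308.2 CPM (299.6 to 316.9) in non-cycling cells, and was the 1 past 2-fold. The growth factor receptor gene Egfr had 194.5 and 321.3 CPM and Met 47.0 and 50.04 CPM.

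Genes of the portal end of the lobule were lower in cycling pIVCL cells, while those of the central end were near level. Hepatocytes near the portal vein make urea and glucose, and those near the central vein make glutamine and process drugs. Of 14 periportal genes 13 were lower, 2 of them past 2-fold, with a median log2 difference of -0.70. Hal, histidine ammonia-lyase, had 222.9 CPM (198.9 to 249.1) in cycling and 675.5 CPM (662.8 to 688.4) in non-cycling cells, and Etnppl had 84.0 and 217.4 CPM. The urea cycle gene Cps1 had 1242 and 2274 CPM, and the gluconeogenic gene Pck1 950.9 and 1799 CPM. Hsd17b13 was the exception, at 638.9 and 529.4 CPM. Pericentral genes had a median of 0.08, with Cyp2e1 at 631.1 and 690.6 CPM and Lect2 at 204.4 and 115.3 CPM.

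Pericentral UMIs were therefore a larger part of zonation UMIs in cycling pIVCL cells. They were 5790 of 17813, 32.5% (31.8% to 33.2%), against 22.2% (22.03% to 22.3%) in non-cycling cells and 31.8% in hepatocytes with 1 or 2 cycle UMIs. By barcode the share ran from 3.09% to 91.5% in members (median 19.5%) and from 0 to 97.1% in non-cycling cells (median 12.5%). It was above the non-cycling median in 66 of 88 members and above 50% in 18 of 88 (20.5%), beside 171 of 1474 non-cycling hepatocytes (11.6%). In non-cycling hepatocytes at least as deep as the lower quartile of members the share was 23.5%. Without the 6 members with 10 or more UMIs of another cell type the members' share was 32.1%.

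The cycling share of pIVCL hepatocytes was counted in tertiles of the pericentral share. It was 11 of 551 (2.00%, 1.00% to 3.54%) in the most periportal tertile, 34 of 554 (6.14%, 4.29% to 8.47%) in the middle and 43 of 547 (7.86%, 5.75% to 10.4%) in the most pericentral. Depth moved with it, with median UMIs of 11386, 11510.5 and 16963. Among hepatocytes over the median depth the shares were 2.35%, 8.53% and 9.76%. At or under it they were 1.69%, 4.05% and 5.02%. The limits of the tertiles were 9.35% and 20%, with 183 and 50 hepatocytes within 1 percentage point of each. The cycling share also differed by depth itself, at 1.78%, 5.53% and 8.38% from the shallowest to the deepest tertile. Over tertiles of the hepatocyte transcript share, which the rule used, it was 8.91%, 4.63% and 2.14% from the lowest to the highest, and over tertiles of mitochondrial share 5.88%, 6.95% and 2.85%.

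Both Control members lay at the portal end. Their pericentral shares were 4.90% and 5.94%, from 18 of 367 and 24 of 404 zonation UMIs, against a median of 21.0% in 556 Control non-cycling hepatocytes. Cyp1a2, a pericentral cytochrome, had 0 UMIs in both and 476.3 CPM in Control non-cycling hepatocytes. Cyp2f2, a periportal cytochrome, had 35 and 59 UMIs, 1843 CPM, against 833.3 CPM in Control non-cycling hepatocytes. Both Control members were in the most periportal tertile of Control hepatocytes, at 2 of 188. Non-cycling hepatocytes differed between the libraries too, with pericentral genes at 3885 CPM in pIVCL and 11011 CPM in Control.

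**Figure D5:**
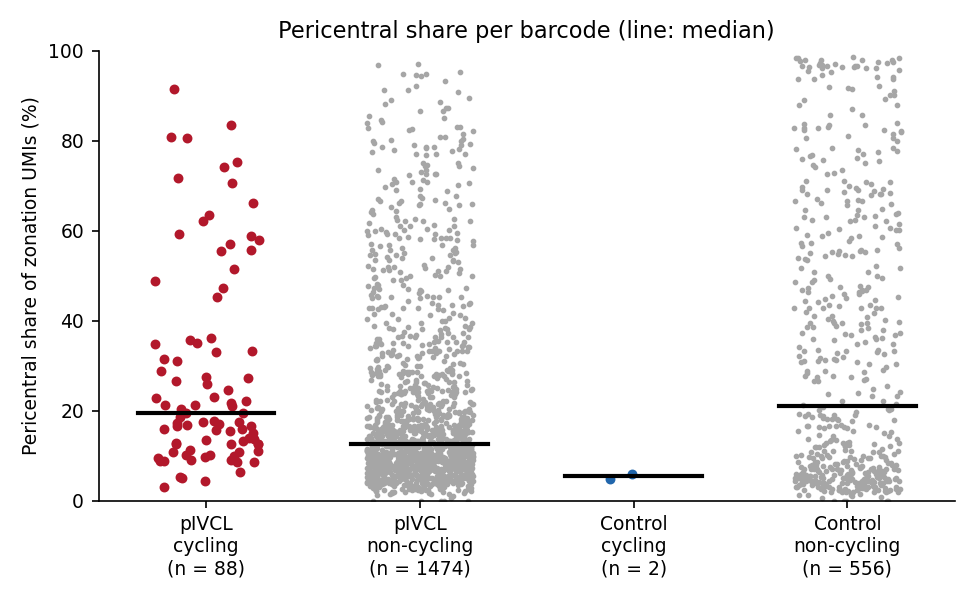
Pericentral share of pericentral and periportal UMIs (percent) per barcode with at least 20 such UMIs, cycling left of non-cycling in pIVCL and then in Control; black lines are medians. The medians are 19.5% and 12.5% in pIVCL, and the 2 Control members lie at 4.90% and 5.94%, under the Control non-cycling median of 21.0%.

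Gene levels of the cycling hepatocytes themselves were set side by side between libraries, with 88 cells in pIVCL and 2 in Control. One UMI is worth 19.6 CPM in the Control members, and the level of 3 UMIs is 58.8 CPM there and 2.14 CPM in pIVCL members. Of 7049 genes with at least 20 summed UMIs, 1062 (15.1%) were at least 2-fold higher in pIVCL members and 373 (5.29%) lower. In non-cycling hepatocytes of the same libraries the shares were 0.37% and 0.467% of 11354 genes. The shares cannot be compared directly, because Control members held 51002 non-mitochondrial UMIs and Control non-cycling hepatocytes 7431965. On the log2(CPM + 20) scale, a gene over 20 CPM in pIVCL members passed 2-fold wherever Control members had no UMI of it. That level is close to the 19.6 CPM that a UMI is worth there, so counting error alone can make such a call. How many calls arose so was not tested. Without the Control member with endothelial transcripts the counts of genes higher and lower were 1856 and 689. Of the 47 measured G2/M genes outside the rule 14 were past 2-fold higher and none lower, beside the 15.1% of all genes. Of 28 S phase genes 4 were past 2-fold higher and 6 lower.

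The 10 genes highest in pIVCL over Control members were Cyp1a2, Osgin1, Cyp2a5, Lect2, Mup20, Gstp1, Hamp, Ccnd1, Rnase4 and Glrx3. Cyp1a2, Cyp2a5 and Lect2 are on the pericentral list of 14 genes, of which 9 of 10 measured were past 2-fold higher. The Control side of that count rests on 42 pericentral UMIs of 2 members at the portal end. Among non-cycling hepatocytes the list went the other way. There 12 of the 14 genes were lower in pIVCL, 5 of them past 2-fold, and none was past 2-fold higher, with a summed ratio of 0.353. Osgin1 had 0 UMIs in Control members and 300.6 CPM in pIVCL members, 5.11 times the level of 3 Control UMIs. Gstp1 had 0 UMIs and 193.0 CPM, 3.28 times that level. Both were also higher in pIVCL among non-cycling hepatocytes, Osgin1 at 255.3 against 80.1 CPM and Gstp1 at 106.7 against 18.97 CPM. Mup20, a major urinary protein whose reads paralogs may share, had 1255 CPM in pIVCL and 98.0 CPM in Control members. Hamp, the hormone hepcidin, had 1556 CPM in pIVCL and 137 CPM in Control members, from 7 UMIs.

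The 10 lowest were Hamp2, Sparc, Saa1, Tcf4, Hist1h1d, Igfbp7, Hist1h1e, Retsat, Zyx and Sds. Sparc and Igfbp7, which endothelial cells express strongly, had 0 UMIs in one Control member and 12 and 11 in the Control member with endothelial transcripts. Tcf4 had 2 and 10. In pIVCL members a single barcode held 69.4% of the Sparc UMIs and 61.5% of the Igfbp7 UMIs. Hamp2 had 74.1 CPM in pIVCL members and 765 CPM in Control members, and its reads may be shared with Hamp. The periportal gene Sds had 129 and 549 CPM.

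In both libraries the genes with the largest difference of members over non-cycling hepatocytes overlapped the cycle lists. Ranked by the lower of the 2 differences, the first 15 were Mki67, Stmn1, Smc4, Top2a, Hmgb2, Cenpa, Prc1, Tuba1b, Spc25, H2afz, Tubb5, Smc2, Cenpw, H2afx and Ube2s. Of these Tuba1b and Tubb5, tubulin subunits, and Ube2s, which extends ubiquitin chains for the anaphase-promoting complex, were on no list. Mki67 and Top2a are rule genes, which non-cycling hepatocytes lack by definition, so the overlap was partly fixed by the selection. Tuba1b had 289 CPM in cycling and 21.0 CPM in non-cycling pIVCL cells, and 412 and 25.2 CPM in Control. Tubb5 had 420 and 56.8 CPM in pIVCL and 902 and 67.1 CPM in Control. Reads of tubulin genes can be shared among their close copies.

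Of the genes lowest in cycling over non-cycling pIVCL cells, a few chosen after their values were seen are given. After Hbb-bs, a red cell globin at 12.1 CPM in cycling and 121 CPM in non-cycling cells, came Hal, Slc38a3, Agxt and Aqp8. Slc38a3, a glutamine transporter, had 148 CPM in cycling and 419 CPM in non-cycling cells, and Agxt, of glyoxylate breakdown, 187 and 479 CPM. Aqp8, a water channel, had 85.5 and 225 CPM. Insig2, which holds back sterol synthesis, had 282 and 595 CPM, and Mat1a, which makes S-adenosylmethionine, 1321 and 2687 CPM. The erythroid list as a whole had 28.5 CPM in cycling and 208 CPM in non-cycling pIVCL cells, with 1426 of its UMIs in 1 non-cycling barcode.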

How the data were processed

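Per the file headers and the submitters' processing notes, the authors made the deposited UMI counts per gene and barcode with Cell Ranger 3.0.2 on mm10. The 2 count tables list 31053 genes and barcodes of at least 500 UMIs. No counts were corrected here, and no doublet caller was run. Counts were summed over the barcodes of a class and scaled to CPM, per 1000000 non-mitochondrial UMIs. Differences are on log2(CPM + 20), for genes with at least 20 summed UMIs over both classes. With 1 library per group no test was made. Intervals are exact Poisson (levels), Clopper-Pearson (shares), conditional binomial (ratios of sums) and log-scale (ratios of shares), at 95%, and cover counting error within a library, not animals.

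The members and the gene lists were chosen with earlier results of these data known. Named genes are those of the rule, the list genes with the most UMIs or the largest differences, and 10 at each end of pIVCL over Control, with at least 30 UMIs and 50 CPM. Other named genes were chosen after their values were seen. Promoters came from RefSeq on GRCm38.p6. Python 3.11.15, numpy 2.4.6, scipy 1.17.1, pandas 2.3.3 and matplotlib 3.10.9 were used. Only the 2-fold call was tried on simulated counts, drawn without variation between cells.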

Additional observations from a re-analysis of the deposited data

Results flagged for a closer look

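Setting cycling against non-cycling hepatocytes, 3 gene lists lay on opposite sides of 1 in the 2 libraries with both counting intervals clear of 1, leaving out the genes of the rule. None of these differences was tested, because each group had 1 library and Control had 2 cycling cells. The pericentral list had a ratio of summed CPM of 1.06 (1.03 to 1.09) in pIVCL and 0.0748 in Control. In pIVCL its genes had a median log2 difference of 0.08, as did all genes, so the list was near level there and not reversed. That interval counts UMIs pooled over members as independent. The periportal list had 0.629 in pIVCL and 1.33 in Control. The list of fetal and progenitor genes had 1.19 in pIVCL and 0.567 (0.292 to 0.991) in Control, where 12 UMIs of the Control members stand behind it. The 3 hepatocyte genes of the rule, Alb, Apoa1 and Ttr, had 0.757 in pIVCL and 1.08 in Control, and other lists lay on opposite sides of 1 with an interval that spans it, among them the acute phase list at 0.732 in pIVCL and 1.03 in Control.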

How the results depend on the processing

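The cycling share of 5.23% in pIVCL became 6.77% with at most 25% mitochondrial UMIs, 3.4996% with at least 5% hepatocyte transcripts, 4.07% with other cell types' markers left out, 4.10% without Mki67 in the rule and 2.20% by the S phase list; the Control share was 0 with other cell types' markers left out, which left no ratio. The ratio of shares, 15.4, was 7.51 (1.82 to 30.9) with at least 5% hepatocyte transcripts, 6.51 by the G2/M list and 28.7 (4.00 to 206) without members with 10 or more UMIs of another cell type, and 10.97 to 14.5 under the others.

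Counts of genes past 2-fold followed the settings. For pIVCL over Control in cycling cells, 1062 higher and 373 lower genes became 1795 and 690 with a pseudocount of 5, 277 and 136 with 50, 591 and 179 with at least 50 UMIs, 589 and 213 with at least 5% hepatocyte transcripts, and 1856 and 689 without the Control member with endothelial transcripts. For cycling over non-cycling cells in pIVCL, 239 higher and 25 lower became 589 and 67 with a pseudocount of 5, and 104 and 7 with 50, and 13 were lower per all UMIs. In Control, 760 higher and 811 lower became 1694 and 2699 with 5, 241 and 189 with 50, and 539 were lower per all UMIs.

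Median log2 differences of pIVCL over Control cycling cells moved as follows. With at least 5% hepatocyte transcripts G2/M gave 0.066 (from 0.34), identity -0.33, pericentral 1.59 (from 2.18) and periportal -0.40. Centred on the median gene, identity gave -0.62 (from -0.49) and periportal -0.83 (from -0.70). As the mean of barcodes they gave -0.44 and -0.47. Without the Control member with endothelial transcripts identity gave 0.020 and xenobiotic metabolism 0.78 (from 1.07), which was 1.24 with a pseudocount of 5 and 0.88 with 50.

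The pericentral share of non-cycling cells was 21.7% in pIVCL and 36.6% in Control without Glul, Cyp2e1 and Cps1, 27.2% and 54.3% with at most 25% mitochondrial UMIs, and 23.5% and 67.2% at the members' depth. The G2/M share was 85.6% in pIVCL members with the rule genes and 84.6% with at least 5 cycle UMIs, and 65.6% in Control without the member with endothelial transcripts. The cause of these changes was not tested.

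No paired analysis was possible because each group had 1 library. Leaving out a replicate was not possible for the same reason. The alternatives that leave out mixed members or call cycling by the S or G2/M list were chosen after seeing the data. A Control value rests on 2 cells, and a level below 58.8 CPM there is below 3 UMIs.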
